A study of Mus musculus with 14 samples.

Results

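The Wnt ligands, the Frizzled (Fzd) receptors and the secreted modulators of the pathway (Dickkopf, Dkk; secreted frizzled-related proteins, Sfrp; R-spondins, Rspo) were followed through 5 chromatin immunoprecipitation sequencing (ChIP-seq) readouts in mouse embryonic stem cells. Members were all protein-coding genes of the mouse annotation whose symbol starts with Wnt, Fzd, Dkk, Sfrp or Rspo and a digit. This rule gave 41 of 21938 protein-coding genes, made up of 19 Wnt, 10 Fzd, 4 Dkk, 4 Sfrp and 4 Rspo genes. The rule uses gene symbols and no measured value. A called region was assigned to a gene when it shared at least 1 bp with the gene region, which runs from 1 kb upstream of the start to the end of the gene.

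Wnt proteins are secreted ligands that bind Frizzled receptors together with the co-receptors Lrp5 and Lrp6. In the canonical branch this binding stabilises β-catenin, which then acts with Tcf/Lef factors on target genes. R-spondins strengthen the signal by keeping receptors on the cell surface, Sfrp proteins bind Wnt ligands and Dkk proteins act on the co-receptors. In embryonic stem cells many developmental genes carry the activating mark H3K4me3 and the repressive mark H3K27me3 at the same start, a state called bivalent. H3K27me3 is written by the Polycomb repressive complex 2, of which Ezh2 is the catalytic subunit. Smarca4 (Brg1) is the ATPase of the esBAF chromatin remodelling complex, Smarcb1 is another subunit of it, and H3K27ac marks active promoters and enhancers.

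The cells were of the 81K1 line, which is based on OG2 cells and is a single clone that carries a doxycycline-inducible short hairpin RNA against Smarcb1. Control cells of the line were left untreated, and Smarcb1 knockdown (kd) cells received 1 µg doxycycline per ml medium every day and were collected 72 h after induction. Control and kd cells carried the same hairpin cassette, so that doxycycline and knockdown cannot be told apart in these libraries. Each of the 5 antibodies (Smarca4, Ezh2, H3K27me3, H3K27ac, H3K4me3) had 1 library per condition and there were 4 inputs. No spread between replicates could be measured and no test was possible. Every difference between conditions below compares a pair of libraries, and fewer or shorter called regions in a library cannot be told apart from a difference in depth or antibody yield.

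The lists differed in size. Smarca4 had 79014 peaks in control and 72339 in kd, Ezh2 6708 and 5364, H3K27me3 22909 and 18320 islands, H3K27ac 39091 and 51100, and H3K4me3 26130 and 33506. Read counts are not part of these lists, so the depth behind a region is unknown and a region that was not called is not a measured absence. At least 50% of the bases were repeat-masked in 45.9% of the Ezh2 peaks of control and in 3.24% of those of kd, and in 79.1% and 74.1% of the H3K27ac islands. All 10 embryonic stem cell markers examined, among them Pou5f1, Nanog and Sox2, held Smarca4, H3K4me3 and H3K27ac regions in both conditions. In control, no marker gene of the neural progenitor, endoderm, mesoderm and fibroblast lists held H3K27ac, and 3 of their 20 genes did in kd. The Smarcb1 gene itself held Smarca4, H3K4me3 and H3K27ac regions in both conditions, which does not measure the knockdown, since the hairpin acts on the transcript.

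The DNA under some of the highest-scored called peaks is printed as examples, which do not stand for all regions. Each stretch was taken as near the peak centre as annotated untranslated exons allowed. The stretches are 250 bases of the mouse reference genome (GRCm38, the same assembly as mm10), read 5′ to 3′ on the strand of the gene, with every CpG in capitals. The first lies under the highest-scored Ezh2 peak of the module in control, which overlaps that of kd, in an intron of Wnt7b (chr15:85581139-85581388, minus strand). The second lies under the highest-scored Ezh2 peak called in kd alone, near the 3′ end of Wnt10a (chr1:74802896-74803145, plus strand). The centre of this stretch is in an intron, 11505 bp from the start, and that of the peak in a coding exon, 11803 bp from it. The last pair comes from the highest-scored Smarca4 peaks called in a single condition, in a coding exon of Wnt1 for control (chr15:98792540-98792789, plus strand) and upstream of the start of Rspo1 for kd (chr4:124986104-124986353, plus strand).
Wnt7b Ezh2 peak of control, shared with kd: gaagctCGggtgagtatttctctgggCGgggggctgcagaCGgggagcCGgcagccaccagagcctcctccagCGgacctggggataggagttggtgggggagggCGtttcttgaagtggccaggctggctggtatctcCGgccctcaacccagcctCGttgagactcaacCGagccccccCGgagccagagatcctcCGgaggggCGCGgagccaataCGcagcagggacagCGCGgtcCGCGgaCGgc
Wnt10a Ezh2 peak of kd alone: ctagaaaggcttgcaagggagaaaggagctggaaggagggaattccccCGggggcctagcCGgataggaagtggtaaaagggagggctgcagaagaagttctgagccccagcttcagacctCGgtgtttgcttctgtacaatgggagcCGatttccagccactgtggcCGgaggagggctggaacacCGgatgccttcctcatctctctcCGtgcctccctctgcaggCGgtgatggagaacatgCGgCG
Wnt1 Smarca4 peak of control alone: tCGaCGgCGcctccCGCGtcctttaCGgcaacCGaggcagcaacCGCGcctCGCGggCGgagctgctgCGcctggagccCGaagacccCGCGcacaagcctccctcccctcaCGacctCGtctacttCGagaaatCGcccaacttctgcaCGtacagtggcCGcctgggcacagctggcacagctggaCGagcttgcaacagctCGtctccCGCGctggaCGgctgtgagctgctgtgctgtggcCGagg
Rspo1 Smarca4 peak of kd alone: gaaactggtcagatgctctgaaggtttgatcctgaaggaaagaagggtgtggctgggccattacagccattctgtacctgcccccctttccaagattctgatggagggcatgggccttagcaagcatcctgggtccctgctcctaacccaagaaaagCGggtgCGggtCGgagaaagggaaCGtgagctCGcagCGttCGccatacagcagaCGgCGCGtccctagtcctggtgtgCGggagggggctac
The Wnt7b stretch holds 19 CpGs, the Wnt10a stretch 10, the Wnt1 stretch 28 and the Rspo1 stretch 11. The starts of the module's genes were rich in CpG as a group. Within 1 kb of the start, the median ratio of observed to expected CpG was 0.629 over the 41 members and 0.474 over all protein-coding genes.

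Nearly every member carried Smarca4 and H3K27me3 in both conditions. Smarca4 peaks were called at 41 of 41 members in control and at 40 in kd, against 70.3% and 71.7% of all protein-coding genes. H3K27me3 islands were called at the same 39 members in both conditions, against 42.4% of protein-coding genes in control, 35.6% in kd and 32.6% in both. No member held H3K27me3 in a single condition, as 9.74% of protein-coding genes did in control alone and 2.95% in kd alone. The 2 members without H3K27me3 were Fzd5 and Dkk4 (54.7% of protein-coding genes lacked it in both conditions). H3K4me3 islands were called at 30 members in control and 36 in kd (63.4% and 68.1% of protein-coding genes), and Dkk2, Dkk3, Dkk4 and Wnt8a had none in either condition, as did 31.1% of protein-coding genes. H3K27ac was the scarcest mark, with 4 members in control and 10 in kd, below the 32.4% and 48.2% of protein-coding genes. No member held it in control alone (3.06% of protein-coding genes).

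Ezh2 was the readout in which the module stood farthest above the background. Its peaks were called at 28 of 41 members in control (68.3%) and at 35 in kd (85.4%), against 12.6% and 15.4% of protein-coding genes. The 7662 genes with H3K27me3 within 1 kb of their start in control, a comparison group chosen after the data were seen, held Ezh2 peaks in 28.8% of cases in control and 40.8% in kd. All 28 members with an Ezh2 peak in control also held one in kd (9.41% of protein-coding genes held peaks in both). A further 7 members held one in kd alone (Fzd6, Fzd7, Fzd9, Fzd10, Rspo4, Sfrp2 and Dkk2), and no member held one in control alone. The count in kd alone was 11 with a stricter threshold, which left out Sfrp2, and 11 with lists of equal length. Among protein-coding genes 5.96% held Ezh2 in kd alone and 3.19% in control alone. Among the 7662 genes with H3K27me3 at the start the shares were 15.3% and 3.34%. The 17.1% of members with Ezh2 in kd alone was thus near that of this group. The 6 members with no Ezh2 peak in either condition were Fzd5, Wnt8a, Sfrp4, Dkk1, Dkk3 and Dkk4, a pattern of 81.4% of protein-coding genes. Their median CpG ratio was 0.456, against 0.631 in the 35 members with an Ezh2 peak. Their gene regions were also shorter, with medians of 7577.5 bp and 23238 bp.

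**Figure D1:**
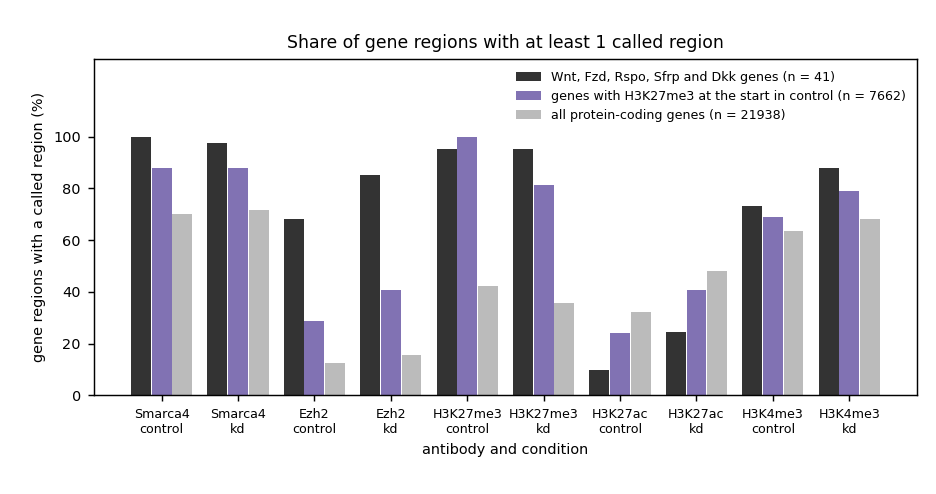
Bars give the percentage of gene regions that held at least 1 called region of each antibody in each condition, for the 41 members, the 7662 genes with H3K27me3 at the start in control and all 21938 protein-coding genes. The members stand at 68.3% and 85.4% for Ezh2 and at 9.76% and 24.4% for H3K27ac; H3K27me3 is part of what defines the middle group.

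The starts of the module's genes were mostly bivalent. Within 1 kb on each side of the start, H3K4me3 and H3K27me3 were both called at 28 members in control (68.3%) and at 34 in kd (82.9%), against 21.2% and 21.6% of protein-coding genes. Ezh2 joined both marks at 19 members in control and 32 in kd, against 6.2% and 12% of protein-coding genes. Every member start with Ezh2 also had H3K27me3, which made 25 members in control and 34 in kd (7.01% and 12.4% of protein-coding genes). This pairing was general. Over all protein-coding genes, 1537 of 1564 starts with Ezh2 in control and 2718 of 2770 in kd also had H3K27me3. H3K27me3 without H3K4me3 was called at the starts of 11 members in control (Wnt1, Wnt2, Wnt3, Wnt8a, Wnt8b, Wnt10a, Wnt10b, Dkk1, Dkk2, Dkk3 and Sfrp5). In kd, 5 starts were in this state, namely those of Wnt8a, Wnt8b, Wnt16, Dkk2 and Dkk3. Among protein-coding genes this state was found at 13.7% of starts in control and 7.6% in kd. Fzd5 had H3K4me3 without H3K27me3 at its start in both conditions (35.3% and 38.8% of protein-coding genes), and Dkk4 had neither mark (29.7% and 32%).

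**Figure D2:**
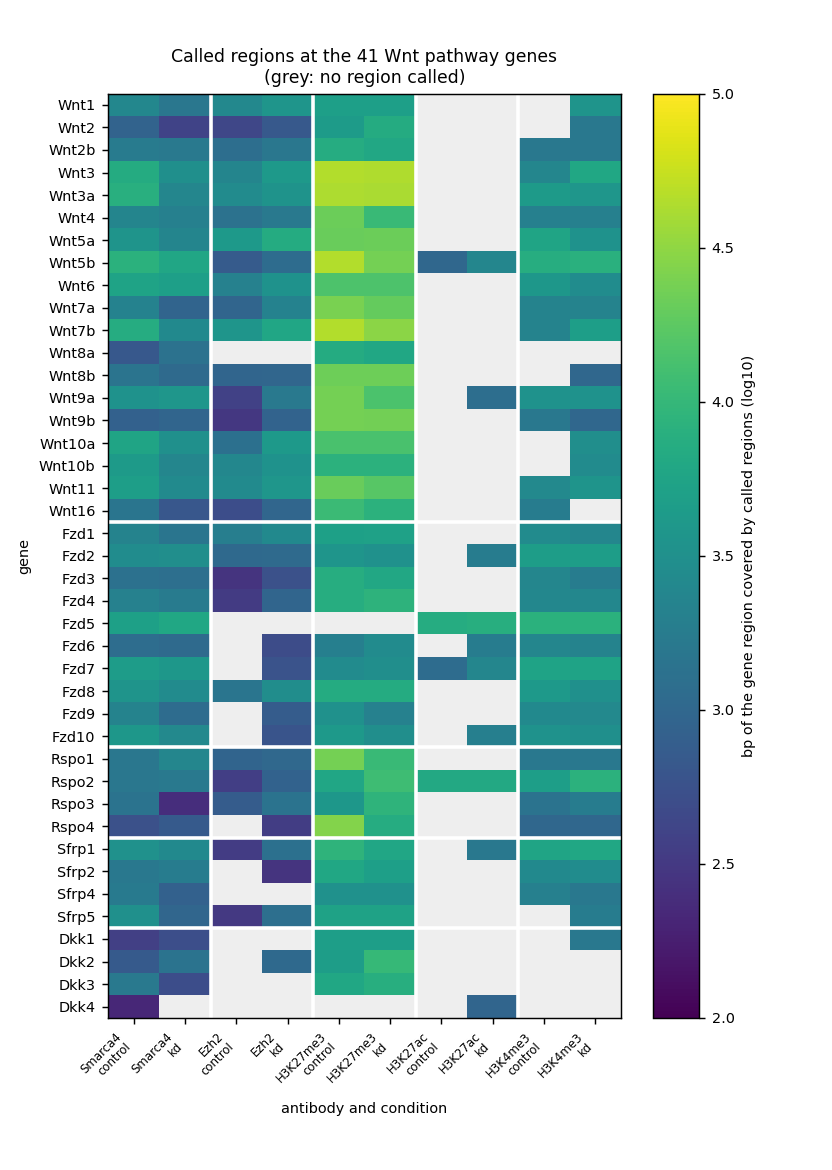
Each cell gives, on a log10 colour scale, the base pairs of a gene region covered by called regions, with the 41 genes in rows by family and the antibodies in columns by condition. Grey marks the absence of a called region, and the Ezh2 columns are filled for 28 genes in control and 35 in kd while the H3K27ac columns are filled for 4 and 10.

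Nearly all ligand genes carried both Polycomb readouts. H3K27me3 and Smarca4 were called at all 19 Wnt genes in both conditions and Ezh2 at 18 of them, with Wnt8a as the exception. H3K4me3 was called at 13 Wnt genes in control and at 17 in kd (68.4% and 89.5%, against 63.4% and 68.1% of protein-coding genes). Covered length, the base pairs of a gene region under called regions, was longer in kd for Ezh2 at all 18 of these genes, near the background of 93.9% of protein-coding genes with peaks in both conditions. For Smarca4 it was shorter in kd at 16 of the 19, and the median log2 ratio of kd to control was −0.68, against 59.3% and −0.13 over protein-coding genes.

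Wnt7b, a ligand with roles in lung and kidney development, had the highest Ezh2 score of the module in both conditions. MACS2 scores, which grow with the significance of a peak over its background, are not scaled between libraries, and Wnt7b's best Ezh2 score was 616 in control and 1747 in kd. Its Ezh2 peaks covered 3689 bp in control and 5940 bp in kd of the 48037 bp gene region (chr15:85535437-85582473 for the gene). Smarca4 peaks went the other way and covered 7144 bp in control and 2649 bp in kd. H3K27me3 islands covered 45437 bp in control and 30037 bp in kd, which was the longest coverage of any member in control. H3K4me3 islands covered 2200 bp in control and 4800 bp in kd, and the island centred 5272 bp inside the gene was called in kd alone. No H3K27ac island was called there in either condition.

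Wnt3, which is required for the primitive streak, had the longest H3K27me3 coverage of any member in kd. Its islands covered 44808 bp in control and 44451 bp in kd of a 44808 bp gene region. Smarca4 covered 7048 bp in control and 3102 bp in kd, Ezh2 2301 bp in control and 4073 bp in kd and H3K4me3 2400 bp in control and 6051 bp in kd, without H3K27ac. Its start thus had no H3K4me3 island in control and had one in kd. At Wnt3a, the close paralogue, Smarca4 covered 7908 bp in control and 2372 bp in kd, the largest difference of this readout in base pairs among the members. Ezh2 covered 2791 bp in control and 3488 bp in kd, H3K27me3 42920 bp in control and 41920 bp in kd and H3K4me3 4352 bp in control and 3800 bp in kd, with no H3K27ac.

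Wnt10a had more Ezh2 and H3K4me3 regions called in kd alone than any other ligand. H3K4me3 was not called anywhere in its gene region in control and covered 3000 bp in kd, in 3 islands. Ezh2 covered 1267 bp in control and 4148 bp in kd, with 4 peaks of kd alone centred 1936, 3960, 9355 and 11803 bp from the start. Smarca4 covered 5694 bp in control and 3214 bp in kd and H3K27me3 the whole 13664 bp in both conditions, while H3K27ac was not called. The 3′ site is where these readouts met. It held the highest Smarca4 score of the gene in control (chr1:74802844-74803980, score 695), and the Smarca4 peak that overlaps it scored 164 in kd. In kd alone it held an Ezh2 peak (chr1:74802779-74803858, score 399) and an H3K4me3 island (chr1:74802801-74803800). All 3 regions are centred in a coding exon.

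**Figure D3:**
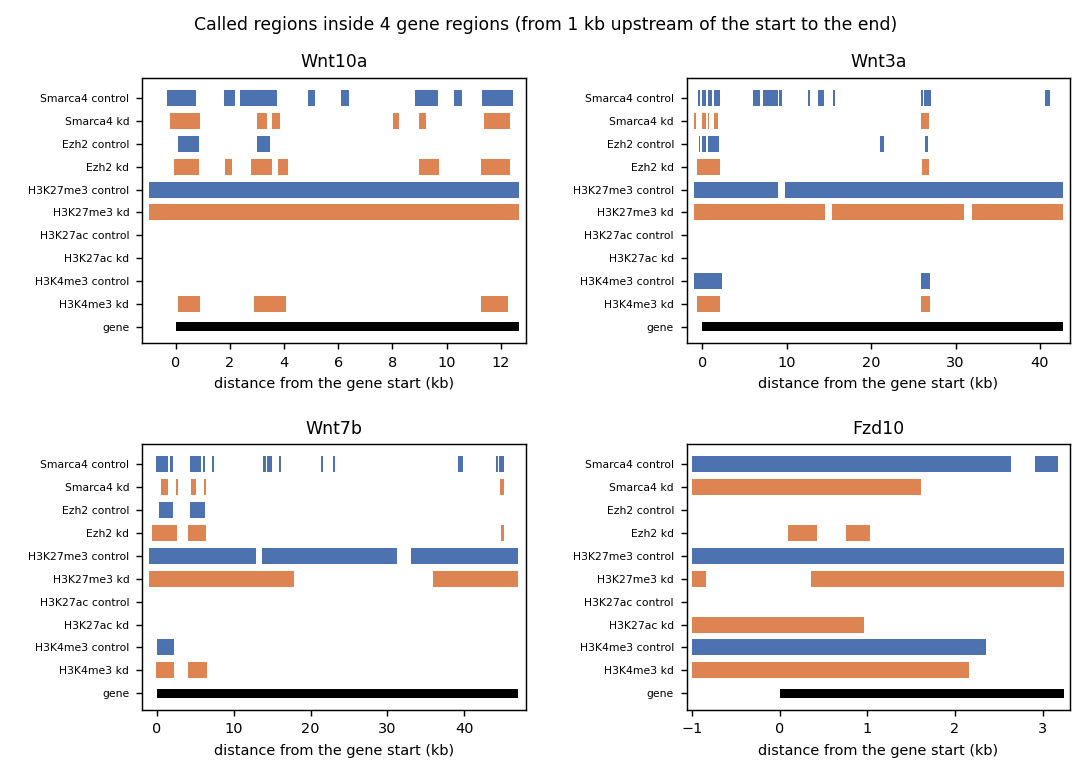
Bars mark called regions of each antibody in control and kd along the gene regions of Wnt10a, Wnt3a, Wnt7b and Fzd10, with the distance from the gene start in kb on the horizontal axis and the gene as a black bar. At Wnt10a the Ezh2 and H3K4me3 regions about 11803 bp from the start appear in kd alone over a Smarca4 peak of both conditions, and at Wnt3a and Wnt7b many Smarca4 peaks away from the start appear in control alone.

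Neighbouring Wnt genes shared single H3K27me3 islands. Wnt6 and Wnt10a lay under an island of 52200 bp in control and 57400 bp in kd, and Wnt10b and Wnt1 under islands of 49400 and 48800 bp. Wnt3a and Wnt9a shared an island of 37200 bp in control and none in kd. At Wnt6, Smarca4 covered 5530 bp in control and 4931 bp in kd, Ezh2 2087 bp in control and 3397 bp in kd, H3K27me3 all 14431 bp in both and H3K4me3 3909 bp in control and 2909 bp in kd. Wnt6 thus had H3K4me3 in control where its neighbour Wnt10a had none, under the same H3K27me3 island. At Wnt10b, Smarca4 covered 4272 bp in control and 2387 bp in kd, Ezh2 2430 bp in control and 3360 bp in kd, H3K27me3 all 8439 bp in both and H3K4me3 0 bp in control and 2800 bp in kd. At Wnt1, a ligand needed for the midbrain, Smarca4 covered 2480 bp in control and 1553 bp in kd, Ezh2 2522 bp in control and 3661 bp in kd, H3K27me3 all 4981 bp in both and H3K4me3 0 bp in control and 3600 bp in kd. H3K4me3 was therefore called in kd alone at both genes of this pair. With a stricter threshold and with lists of equal length the Wnt1 call was kept and that of Wnt10b was lost. None of these 3 genes had H3K27ac in either condition.

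H3K4me3 in kd alone was also found at Wnt2 and Wnt8b. Thus 5 ligands and, outside the ligands, Dkk1 and Sfrp5 made up the 7 members with this pattern. Their share was 17.1%, against 5.49% of protein-coding genes and 10.8% of genes with H3K27me3 at the start in control. With lists of equal length 5 members were left, without Wnt10b and Dkk1. With a stricter threshold the count was 7, with Sfrp4 and Wnt5a in place of these. Wnt16 was the only member with H3K4me3 in control alone (0.825% of protein-coding genes), and with a stricter threshold no member was. At Wnt2, Smarca4 covered 893 bp in control and 406 bp in kd, Ezh2 438 bp in control and 683 bp in kd, H3K27me3 4385 bp in control and 6985 bp in kd and H3K4me3 0 bp in control and 1585 bp in kd. At Wnt8b, Smarca4 covered 1416 bp in control and 1103 bp in kd, Ezh2 941 bp in control and 980 bp in kd, H3K27me3 all 21802 bp in both and H3K4me3 0 bp in control and 1000 bp in kd. The Wnt8b island was centred 18229 bp from the start, in contrast to the Wnt2 island at the start. At Wnt16, Smarca4 covered 1450 bp in control and 659 bp in kd, Ezh2 509 bp in control and 984 bp in kd, H3K27me3 11174 bp in control and 8374 bp in kd and H3K4me3 1800 bp in control and 0 bp in kd. H3K27ac was not called at any of the 3.

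The remaining ligands with Ezh2 kept H3K4me3 in both conditions. At Wnt4, which acts in kidney and gonad, Smarca4 covered 2310 bp in control and 2038 bp in kd, Ezh2 1354 bp in control and 1616 bp in kd, H3K27me3 20912 bp in control and 10912 bp in kd and H3K4me3 2000 bp in control and 2000 bp in kd. At Wnt5a, the best known ligand of the non-canonical branch, Smarca4 covered 3525 bp in control and 2302 bp in kd, Ezh2 4058 bp in control and 6974 bp in kd, H3K27me3 20651 bp in control and 21251 bp in kd and H3K4me3 5600 bp in control and 3400 bp in kd. Wnt5a had the longest Ezh2 coverage of any member in both conditions. At Wnt5b, Smarca4 covered 8204 bp in control and 5979 bp in kd, Ezh2 727 bp in control and 1135 bp in kd, H3K27me3 45017 bp in control and 23547 bp in kd, H3K27ac 1000 bp in control and 2400 bp in kd and H3K4me3 7400 bp in control and 8000 bp in kd. Wnt5b was the only ligand with H3K27ac in control, in an intronic island that was 71.3% repeat-masked.

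At Wnt7a, also with H3K4me3 in both conditions, Smarca4 covered 2115 bp in control and 922 bp in kd, Ezh2 952 bp in control and 2116 bp in kd, H3K27me3 24963 bp in control and 19363 bp in kd and H3K4me3 2200 bp in control and 2200 bp in kd. At Wnt11, a ligand of the non-canonical branch, Smarca4 covered 4751 bp in control and 2763 bp in kd, Ezh2 2728 bp in control and 3810 bp in kd, H3K27me3 20689 bp in control and 16689 bp in kd and H3K4me3 2600 bp in control and 3600 bp in kd. Inside Wnt11 an Ezh2 peak centred 2958 bp from the start (chr7:98837900-98838240, score 86) and an H3K4me3 island centred 3689 bp from it were both called in kd alone. At Wnt2b, Smarca4 covered 1789 bp in control and 1644 bp in kd, Ezh2 1202 bp in control and 1549 bp in kd, H3K27me3 7121 bp in control and 6321 bp in kd and H3K4me3 1600 bp in control and 1600 bp in kd. Wnt9a and Wnt9b went against the family for Smarca4, with longer coverage in kd. At Wnt9a, Smarca4 covered 3371 bp in control and 3809 bp in kd, Ezh2 383 bp in control and 1633 bp in kd, H3K27me3 23825 bp in control and 14073 bp in kd, H3K27ac 0 bp in control and 1200 bp in kd and H3K4me3 3400 bp in control and 3400 bp in kd. At Wnt9b, Smarca4 covered 857 bp in control and 951 bp in kd, Ezh2 309 bp in control and 896 bp in kd, H3K27me3 23458 bp in control and 22821 bp in kd and H3K4me3 1600 bp in control and 1000 bp in kd. Wnt8a, the ligand without Ezh2, was the third Wnt gene with longer Smarca4 coverage in kd (675 and 1351 bp), and it held H3K27me3 (6961 and 6161 bp) without H3K4me3 or H3K27ac. Apart from Wnt5b and Wnt9a, no ligand held H3K27ac in either condition.

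The receptors were the family in which Ezh2 calls differed most in number between conditions. Ezh2 was called at 5 of 10 Fzd genes in control and at 9 in kd. H3K4me3 and Smarca4 were called at all 10 in both conditions, and H3K27me3 at 9. In kd, 5 Fzd genes held H3K27ac and in control 2, which is near the 48.2% of protein-coding genes in kd and below the 32.4% in control.

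Fzd10 held both an Ezh2 peak and an H3K27ac island in kd alone. Its Ezh2 peaks covered 607 bp in kd, in 2 peaks with scores of 105 and 33, and were not called in control. Its H3K27ac island (chr5:128599801-128601800) covered 1957 bp of the gene region in kd, and none was called in control. Smarca4 covered 3906 bp in control and 2611 bp in kd with best scores of 504 and 325. H3K27me3 covered the whole 4250 bp gene region in control and 3050 bp in kd, and H3K4me3 covered 3357 bp in control and 3157 bp in kd. The gap in H3K27me3 in kd lay over the start, where the H3K27ac island was.

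Fzd6 had the same pair of calls. Ezh2 covered 501 bp in kd (score 52) and H3K27ac 1800 bp in kd, and neither was called in control. Smarca4 covered 1167 bp in control and 1091 bp in kd, H3K27me3 1967 bp in control and 2767 bp in kd and H3K4me3 2400 bp in control and 2200 bp in kd. Fzd6, a receptor of planar cell polarity, thus had close to equal Smarca4 coverage in the 2 libraries.

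Among the other receptors with Ezh2 in kd alone, Fzd7 had the highest Smarca4 score of the family in both conditions (707 and 382). Fzd7, a main Wnt receptor of pluripotent cells, held Ezh2 over 593 bp in kd and H3K27ac over 1155 bp in control and 2377 bp in kd. Its H3K27ac islands of the 2 conditions did not overlap, since that of control lay over the end of the gene and that of kd over the start. Fzd9 held Ezh2 over 742 bp in kd, with Smarca4 over 2180 bp in control and 1143 bp in kd, and had no H3K27ac.

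Fzd genes with Ezh2 in both conditions were Fzd1, Fzd2, Fzd3, Fzd4 and Fzd8. At Fzd1, Smarca4 covered 2185 bp in control and 1468 bp in kd, Ezh2 1896 bp in control and 2629 bp in kd, H3K27me3 5035 bp in control and 5197 bp in kd and H3K4me3 2800 bp in control and 2400 bp in kd. At Fzd2, Smarca4 covered 2911 bp in control and 3033 bp in kd, Ezh2 1062 bp in control and 1090 bp in kd, H3K27me3 3658 bp in control and 3258 bp in kd, H3K27ac 0 bp in control and 1805 bp in kd and H3K4me3 4663 bp in both. Fzd2 held its H3K27ac in an island whose centre lay at −1695 bp from the start. At Fzd3, a receptor with roles in axon guidance, Smarca4 covered 1308 bp in control and 1232 bp in kd, Ezh2 279 bp in control and 548 bp in kd, H3K27me3 7463 bp in control and 6263 bp in kd and H3K4me3 2400 bp in control and 1800 bp in kd. Its Ezh2 peaks of the 2 conditions did not overlap, since that of control was an intronic peak, 77.1% repeat-masked and centred 12328 bp from the start, and that of kd lay at the start. At Fzd4, Smarca4 covered 2098 bp in control and 1754 bp in kd, Ezh2 332 bp in control and 946 bp in kd, H3K27me3 7380 bp in control and 8646 bp in kd and H3K4me3 2446 bp in both. At Fzd8, Smarca4 covered 3534 bp in control and 2795 bp in kd, Ezh2 1447 bp in control and 2991 bp in kd, H3K27me3 all 6974 bp in both and H3K4me3 4038 bp in control and 3200 bp in kd. Fzd1, Fzd3, Fzd4 and Fzd8 had no H3K27ac.

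Fzd5 stood apart from the rest of the module. It had no Ezh2 peak and no H3K27me3 island in either condition. It had the longest H3K27ac coverage of any member in both (7243 bp in control and 7600 bp in kd). The H3K27ac island of control had a SICER p of 1.65e-06 and that of kd 3.84e-31. With a stricter threshold Fzd5 held H3K27ac in kd alone. Its H3K4me3 coverage was 8194 bp, the whole gene region, in both conditions and the longest of any member in control. Smarca4 covered 5008 bp in control and 6157 bp in kd, with best scores of 554 and 359.

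**Figure D4:**
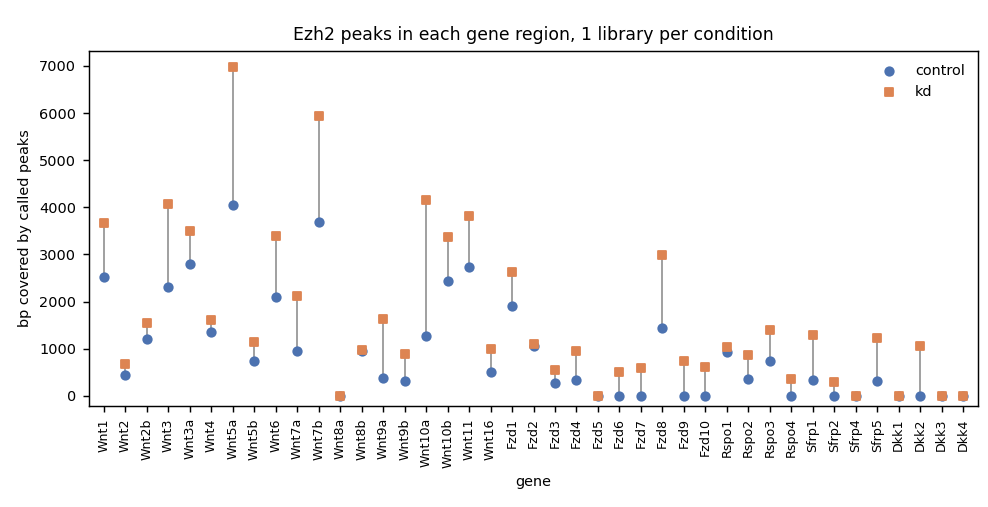
Points give the base pairs of each gene region covered by Ezh2 peaks in control (circles) and kd (squares), with a line joining the pair of libraries. The kd value lies above the control value at all 28 genes with peaks in both, the control value is 0 at a further 7 genes and both are 0 at 6.

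The R-spondins all held H3K27me3, H3K4me3 and Smarca4 in both conditions, and Ezh2 in kd. At Rspo1, which acts in ovary development, Smarca4 covered 1541 bp in control and 2391 bp in kd, Ezh2 935 bp in control and 1043 bp in kd, H3K27me3 23670 bp in control and 10870 bp in kd and H3K4me3 1600 bp in both. Its Smarca4 peak upstream of the start (chr4:124985946-124986511, score 158) was the highest-scored of kd alone in the module. At Rspo2, a limb and lung regulator, Smarca4 covered 1540 bp in control and 1631 bp in kd, Ezh2 364 bp in control and 868 bp in kd, H3K27me3 6026 bp in control and 11826 bp in kd, H3K27ac 6400 bp in both and H3K4me3 4800 bp in control and 8400 bp in kd. The H3K4me3 coverage of Rspo2 was the longest of any member in kd, and its H3K27ac island was 100% repeat-masked and was centred 26225 bp from the start. At Rspo3, Smarca4 covered 1401 bp in control and 245 bp in kd, Ezh2 741 bp in control and 1396 bp in kd, H3K27me3 3867 bp in control and 8867 bp in kd and H3K4me3 1400 bp in control and 1800 bp in kd. Rspo4, which acts in nail formation, held Ezh2 in kd alone over 347 bp and had the widest H3K27me3 difference of the family (27942 bp in control and 7274 bp in kd). Rspo1, Rspo3 and Rspo4 had no H3K27ac.

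The secreted antagonists were the Sfrp and Dkk families. Ezh2 was called at 2 of 4 Sfrp genes in control and at 3 in kd, and at 0 and 1 of 4 Dkk genes (12.6% and 15.4% of protein-coding genes). With 4 genes in each family, these counts are too small to set the families apart. Sfrp1 had the highest Smarca4 score of the module in control (925) and scored 422 in kd, while Sfrp2 had the highest in kd (532) after 460 in control. At Sfrp1, Smarca4 covered 3313 bp in control and 2679 bp in kd, Ezh2 338 bp in control and 1289 bp in kd, H3K27me3 8899 bp in control and 5899 bp in kd, H3K27ac 0 bp in control and 1600 bp in kd and H3K4me3 5699 bp in control and 6099 bp in kd. The start of Sfrp1 thus held H3K27ac, H3K27me3, H3K4me3 and Ezh2 together in kd. The H3K27ac call was lost with a stricter threshold and with lists of equal length. At Sfrp2, Smarca4 covered 1569 bp in control and 1805 bp in kd, H3K27me3 6080 bp in control and 4880 bp in kd and H3K4me3 2680 bp in control and 2880 bp in kd, and the single Ezh2 peak of kd had 282 bp and the low score of 16. At Sfrp5, Smarca4 covered 3166 bp in control and 977 bp in kd, Ezh2 312 bp in control and 1233 bp in kd, H3K27me3 all 5282 bp in both and H3K4me3 0 bp in control and 1800 bp in kd. Sfrp4 held H3K27me3 (3297 bp in both) and H3K4me3 (2000 bp in control and 1600 bp in kd) without Ezh2. Sfrp2, Sfrp4 and Sfrp5 had no H3K27ac.

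The Dkk genes were called by few of the antibodies. Dkk1, the inhibitor needed for head formation, lay wholly under H3K27me3 (4803 bp in both conditions) without Ezh2, and its H3K4me3 covered 0 bp in control and 1600 bp in kd. Dkk2 held Ezh2 in kd alone over 1065 bp (score 50), with H3K27me3 over 4709 bp in control and 10109 bp in kd and neither H3K4me3 nor H3K27ac. Dkk3 held H3K27me3 over 6057 bp in control and 7657 bp in kd and Smarca4 over 1629 bp in control and 518 bp in kd, and no other antibody. Dkk4 had a region of a single antibody in each condition, the lowest number in the module. Its only region in control was a Smarca4 peak of 216 bp (score 36), and its only region in kd was an H3K27ac island that covered 958 bp upstream of the gene and was 53.8% repeat-masked. Dkk4 was thus the only member with Smarca4 in control alone (2.45% of protein-coding genes), and no member held Smarca4 in kd alone (3.85%). With a stricter threshold Wnt16 and Dkk3 took the place of Dkk4, and without repeat-masked regions Dkk4 had no H3K27ac.

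Ezh2 peaks at the members were longer in kd. At the 28 members with peaks in both conditions, coverage was longer in kd in 28 of 28, with a median log2 ratio of 0.74. This was close to the background, since among 2065 protein-coding genes with Ezh2 peaks in both conditions 93.9% had longer coverage in kd and the median log2 ratio was 0.70. The median best score of the 28 members was 130.5 in control and 418.5 in kd, against 106 and 311 among the 2065 genes. Fzd3 was the only one of the 28 with a lower best score in kd, as 7.6% of the 2065 genes had (81 and 62). Scores are not scaled between libraries, and by the place of the best score within its own list 11 of the 28 members stood lower in kd.

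Ezh2 peaks present in a single list differed in kind between the conditions. The gene regions of the members held 53 Ezh2 peaks in control, of which 4 overlapped no kd peak (7.55%, against 31.7% of the Ezh2 peaks in all protein-coding gene regions). These 4 were intronic peaks of Wnt3a, Wnt6, Wnt8b and Fzd3, and between 64.1% and 85.2% of their bases were repeat-masked. In kd 22 of 60 peaks overlapped no control peak (36.7%, against 47.7%), and 0 of these 22 were repeat-masked over at least 50% of their bases. Of the 22, 12 were centred in a coding exon, 5 in an intron, 4 in an untranslated exon and 1 upstream of the start. Of the 36 kd peaks centred within 1 kb of a start, 10 were of kd alone (27.8%, against 49.1%). The 4 peaks of control alone were thus all rich in repeats, and the part of repeats in these calls was not tested.

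Smarca4 coverage was lower in kd at most members, by a margin near that of other H3K27me3-marked genes. It was shorter in kd at 29 of the 40 members with peaks in both conditions and longer at 11, with a median log2 ratio of −0.35. Among all protein-coding genes 59.3% had shorter coverage in kd, with a median log2 ratio of −0.13. Among genes with H3K27me3 at the start in control the values were 69.6% and −0.29. The best Smarca4 score was lower in kd at 32 of the 40 members (80%), with medians of 242 and 153. It was lower in 48.3% of all protein-coding genes, whose medians were 176 and 181, and in 60.5% of the H3K27me3-marked genes, whose medians were 195 and 168. By family, coverage was shorter at 16 of 19 Wnt, 8 of 10 Fzd, 3 of 4 Sfrp, 1 of 4 Rspo and 1 of 3 Dkk genes.

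**Figure D5:**
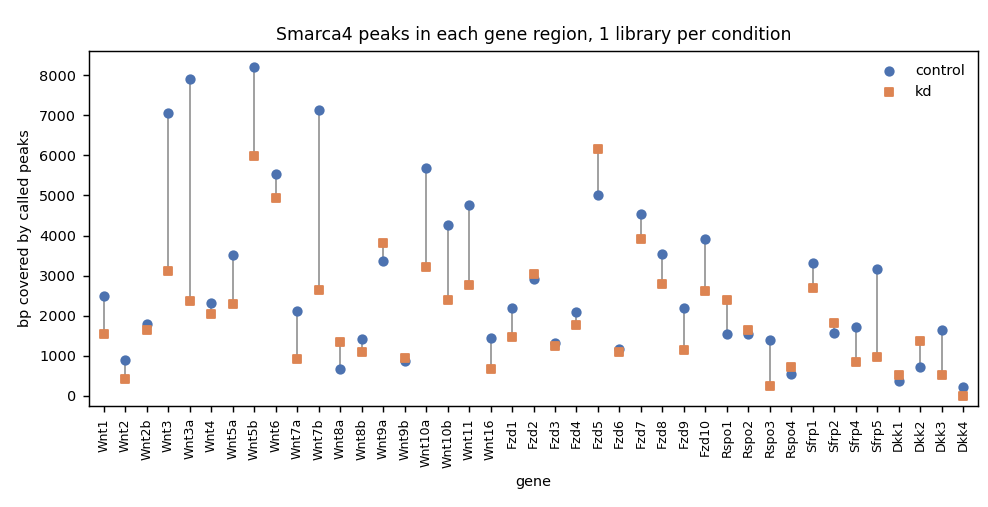
Points give the base pairs of each gene region covered by Smarca4 peaks in control (circles) and kd (squares), with a line joining the pair of libraries. The longest lines are those of Wnt3, Wnt3a and Wnt7b, where control lies above 7000 bp and kd below 3200 bp, and 11 genes have the kd value on top.

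Most Smarca4 peaks of a single condition lay away from the starts, as they did over all protein-coding gene regions. Of 158 Smarca4 peaks at members in control, 64 overlapped no kd peak (40.5%, against 41.3% over all protein-coding gene regions). Within 1 kb of a start this was so for 4 of 52 peaks (7.69%, against 11.6%) and farther away for 60 of 106 (56.6%, against 54.3%). In kd 22 of 125 peaks overlapped no control peak (17.6%, against 27.6%), with 3 of 54 within 1 kb of a start (5.56%, against 12.9%) and 19 of 71 farther away (26.8%, against 36.2%). The median score of the control peaks without a kd partner was 48, and that of those with one was 134. The highest-scored of the former was the Wnt1 peak (chr15:98792329-98793001, score 187), and the next was a 1791 bp peak in an intron of Wnt3a with a score of 173.

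H3K27me3 coverage differed less. It was shorter in kd at 20 of 39 members, longer at 10 and equal at 9, with a median log2 ratio of −0.01. Among the 7160 protein-coding genes with islands in both conditions 55.7% were shorter and 28.6% longer, with a median of −0.11. Summed over the members, coverage was 549090 bp in control and 458204 bp in kd, a log2 ratio of −0.26. The ratio of the sums over all protein-coding genes was −0.49. The whole gene region lay under H3K27me3 at 14 members in control and at 9 in kd (6.84% and 4.79% of protein-coding genes). Wnt1, Wnt6, Wnt8b, Wnt10a, Wnt10b, Fzd8, Dkk1 and Sfrp5 were covered whole in both. Coverage was counted only inside the gene region, so these members count as equal whatever the width of their islands. H3K4me3 coverage was equal at 10 of 29 members, longer in kd at 8 and shorter at 11, with a median log2 ratio of 0 (38.4% of protein-coding genes with islands in both conditions were longer in kd and 50.6% shorter).

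H3K27ac was called in kd alone at 6 members (14.6%, against 18.9% of protein-coding genes), namely Fzd2, Fzd6, Fzd10, Wnt9a, Sfrp1 and Dkk4. The members' share was thus not above the background. With a stricter threshold and with lists of equal length, Wnt9a and Sfrp1 held no H3K27ac in kd. At the start, H3K27ac was called at 1 member in control (Fzd5) and at 8 in kd, against 16% and 30.9% of protein-coding genes. In 6 of these 8 (Fzd2, Fzd6, Fzd7, Fzd10, Wnt9a and Sfrp1) the start also held H3K27me3, a pair of marks found at the starts of 0 members in control and found at 1.5% of protein-coding starts in control and 4.34% in kd.

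Ezh2 and H3K27me3 were called at a smaller share of the other genes of the pathway than of the members. A list of 36 other pathway genes held co-receptors, regulators of receptor turnover, ligand processing factors, cytoplasmic components, Tcf/Lef factors and targets. Smarca4 was called at 36 of 36 in both conditions (67.9% of protein-coding genes) and H3K27me3 at 24 in both (66.7%, against 32.6%). Ezh2 was called at 11 in control and 16 in kd (30.6% and 44.4%, against 12.6% and 15.4% of protein-coding genes). H3K27ac was called at 12 and 23 (33.3% and 63.9%, against 32.4% and 48.2%). For H3K4me3 the counts were 34 and 35 (94.4% and 97.2%, against 63.4% and 68.1%). The cytoplasmic genes Apc, Axin1, Gsk3a, Gsk3b, Csnk1a1 and Ctnnb1, which encode β-catenin and its destruction complex, and Dvl2 and Dvl3 had no Ezh2 or H3K27me3 in either condition, as 81.4% and 54.7% of protein-coding genes lacked them. The third Dishevelled gene, Dvl1, held H3K27me3 over 3199 bp in control and 599 bp in kd and no Ezh2. The pathway's feedback target Axin2 held Ezh2 over 884 bp in control and 2099 bp in kd, and the target Sp5 over 2561 and 3188 bp. The highest Smarca4 coverage of the list was that of Tcf7l1, a repressor of pluripotency genes, with 25383 bp in control and 7448 bp in kd. Tcf7l1 and Wif1 held Ezh2 in control alone (220 and 415 bp), a pattern found at 0 of the 41 members and at 3.19% of protein-coding genes. Smarca4 coverage was shorter in kd at 28 of the 36 genes, with a median log2 ratio of −0.43.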

How the data were processed

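ChIP-seq was measured in 10 immunoprecipitated libraries, 1 per antibody and condition; the 4 inputs were not analysed here. According to the study's methods and the labels, reads were trimmed with Trim Galore, aligned uniquely to mm10 with Bowtie2 and handled with SAMtools 1.9. For Smarca4 and Ezh2 the deposited values are a MACS2 score per peak. The methods name input as background, whereas peak names and the input labels name IgG. For the histone marks the deposited p-value per island is that of SICER, filtered by the authors at a stricter limit for H3K4me3 and H3K27me3 than for H3K27ac. Ezh2, H3K27ac and H3K4me3 were precipitated in the authors' laboratory and Smarca4 and H3K27me3 by a company, so that these 2 groups of libraries are not comparable in level. Scores and p-values were not scaled between libraries.

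Gene models were GENCODE M21 (GRCm38); 21938 protein-coding genes of chromosomes 1 to 19, X and Y were used. Regions were assigned, measured and compared with Python 3.11.15, pandas 2.3.3 and numpy 2.4.6, where regions of the 2 conditions counted as shared with at least 1 bp in common. The steps were tested on simulated lists for 1586 gene regions, all of which came back right. Values of all libraries were written out for members with regions of at least 2 antibodies in a single condition, the members with the highest score or coverage and the members with Ezh2 in both conditions. No member lacked every region. The sequence under the highest-scored Ezh2 peak of control alone is not reported here. The members and lists were chosen with earlier results of these data known. Alternatives were a stricter threshold, the start alone, an overlap of at least 200 bp, lists of equal length and the removal of regions repeat-masked over at least 50%. Percentages beside counts of members are those of all protein-coding genes.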

Additional observations from a re-analysis of the deposited data

How the results depend on the processing

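Of 50 counts of members with a region in a single condition under the 5 alternatives, 43 stayed within 1.5 times the value reported. With a stricter threshold (MACS2 score of 50 or more, −log10 of the SICER p of 20 or more, and of 10 or more in the H3K27ac lists) Smarca4 in control alone went from 1 to 2 members, and neither was Dkk4. Ezh2 in kd alone went from 7 to 11 both at that threshold, with 6 of the 7 among them, and with lists of equal length, with all 7 among them. H3K27me3 went from 0 to 1 in control alone (Fzd7) at the stricter threshold, and from 0 to 1 in kd alone (Fzd6) at that threshold and with equal lists. H3K4me3 in control alone went from 1 to 0 at the stricter threshold. H3K27ac in control, reported at 4 members, gave 2 at the stricter threshold, 1 at the start alone and 2 without repeat-masked regions. The causes were not tested. No paired analysis was possible because each antibody had 1 library per condition, and no replicate could be left out for the same reason. Depth is unknown, so a count of 0 here sets no limit on binding.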
